A study of Mus musculus with 6 samples.

Results

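The mitochondrial ribosomal proteins were followed in human acute myeloid leukemia (AML) cells grown in mice. Their rows were chosen by symbol, as MRPL or MRPS followed by a digit, which gave 73 of the 13892 rows of the deposited table. The symbol rule used no measured values, but members were chosen with earlier results of these data known. The cells descended from human hematopoietic stem cells into which NPM1c, a mutant and cytoplasmic form of nucleophosmin, had been introduced, and which had engrafted in immunodeficient NSG mice. Both groups therefore carried the same transgene, tracked by GFP, and neither leukemia without it nor normal marrow is analysed here. Marrow of 3 moribund mice, each from its own transduction, was sorted into bulk leukemic cells (GFP and CD33 positive) and leukemic stem cells (LSC; GFP, CD33 and CD123 positive), which gave 3 libraries per population. CD33 marks myeloid cells, and CD123 is a chain of the receptor for interleukin 3. No exclusion of CD123 is stated for the bulk gate. Each mouse gave 1 library of each population, and replicate numbers are mouse numbers. Ages and sexes of the hosts are not given in the sources used here.

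The mitochondrial ribosome translates the few messenger RNAs of the mitochondrial genome, which encode core subunits of the respiratory chain and the ATP synthase. Its ribosomal RNAs are made inside the organelle, while all of its proteins are encoded in the nucleus and imported. Some of these proteins descend from bacterial ribosomal proteins and others are found only in mitochondria. AML stem cells have been described as dependent on mitochondrial translation and respiration.

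The 73 rows were not all ribosomal proteins. By the accepted structure of the ribosome, 43 encoded large subunit proteins (26 with a bacterial counterpart and 17 specific to mitochondria) and 25 encoded small subunit proteins (15 and 10). Another 2, MRPS18A and MRPS30, carry a small subunit name but sit in the large subunit. MRPS36 is now known as a component of the oxoglutarate dehydrogenase complex, and MRPS31P5 and MRPL45P2 are pseudogenes of MRPS31 and MRPL45. MRPL2, MRPL12, MRPL14, MRPL23, MRPL54 and MRPS2 had no row under these symbols in the deposited table and could not be analysed. After a filter of at least 1 CPM (reads scaled to the normalized library size) in at least 3 libraries, 71 of the 73 rows were tested. The other two were MRPL28, with 4, 11 and 1 reads in the bulk and 27, 27 and 12 in the LSC libraries of mice 1, 2 and 3, and MRPS18A, with 5, 36 and 10 reads in bulk and 6, 12 and 16 in LSC.

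Depth was low for these genes. The 73 rows together held 5241 reads in bulk replicate 1 and 11124 to 17040 in the other 5 libraries, which was 0.152% to 0.213% of the reads outside MTRNR2L rows. MTRNR2L rows are nuclear copies of the gene for the large mitochondrial ribosomal RNA, so that reads of the copies and of that RNA cannot be told apart. They took 70.0%, 47.8% and 27.2% of all reads in the bulk and 45.6%, 28.5% and 30.1% in the LSC libraries of mice 1, 2 and 3. With 0 reads seen, counting alone allows up to 3 reads, or 0.514 CPM in the first bulk library and between 0.190 and 0.254 CPM in the rest.

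Few mitochondrial ribosomal protein rows differed between LSC and bulk at the precision of these libraries. Of 71 rows tested, 1 rose in LSC, the pseudogene MRPS31P5, and none fell, with limma at an adjusted p of 0.05. Over all genes tested 2.71% were higher and 1.33% lower by the same rule, 4.04% in all. With the mouse as a block, 3 rows were higher (MRPS31P5, MRPS6 and MRPL33) and 2 lower (MRPL37 and MRPL13), against 8.25% and 7.71% of all genes. At an unadjusted p under 0.05 there were 6 higher and 3 lower (all genes, 10.2% and 10.1%). The median log2 change (LSC minus bulk) of the 71 rows was 0.04, with quartiles at -0.44 and 0.42. The median of all genes tested was -0.00 and their quartiles were -0.57 and 0.57. In sign 38 rows were positive and 33 negative.

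Few members showed a large difference. The log2 change passed 1 in either direction for 10 of 71 rows (14.1%), against 26.9% of all genes tested. Values of the 3 LSC libraries lay all above those of the 3 bulk libraries for 7 rows and all below for 3, where 13.2% and 11.9% of all genes did so. The direction was the same in all 3 mice for 18 rows that were higher and 9 that were lower (all genes, 27.3% and 25.8%). Each of these 5 shares was below that of all genes, but the 18 of 71 rows higher in all 3 mice came close to 27.3%. These counts overlap, since they describe the same 71 rows, and no test of the shares was run. The 95% interval of the log2 change stayed within 1 in both directions for 9 of 71 rows, and for 14 with the mouse as a block. For the other members a change of that size was within the interval. The standard error had a median of 0.39 over the 38 rows with a mean of 100 reads or more per library and 0.63 over the 33 rows with fewer.

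**Figure D1:**
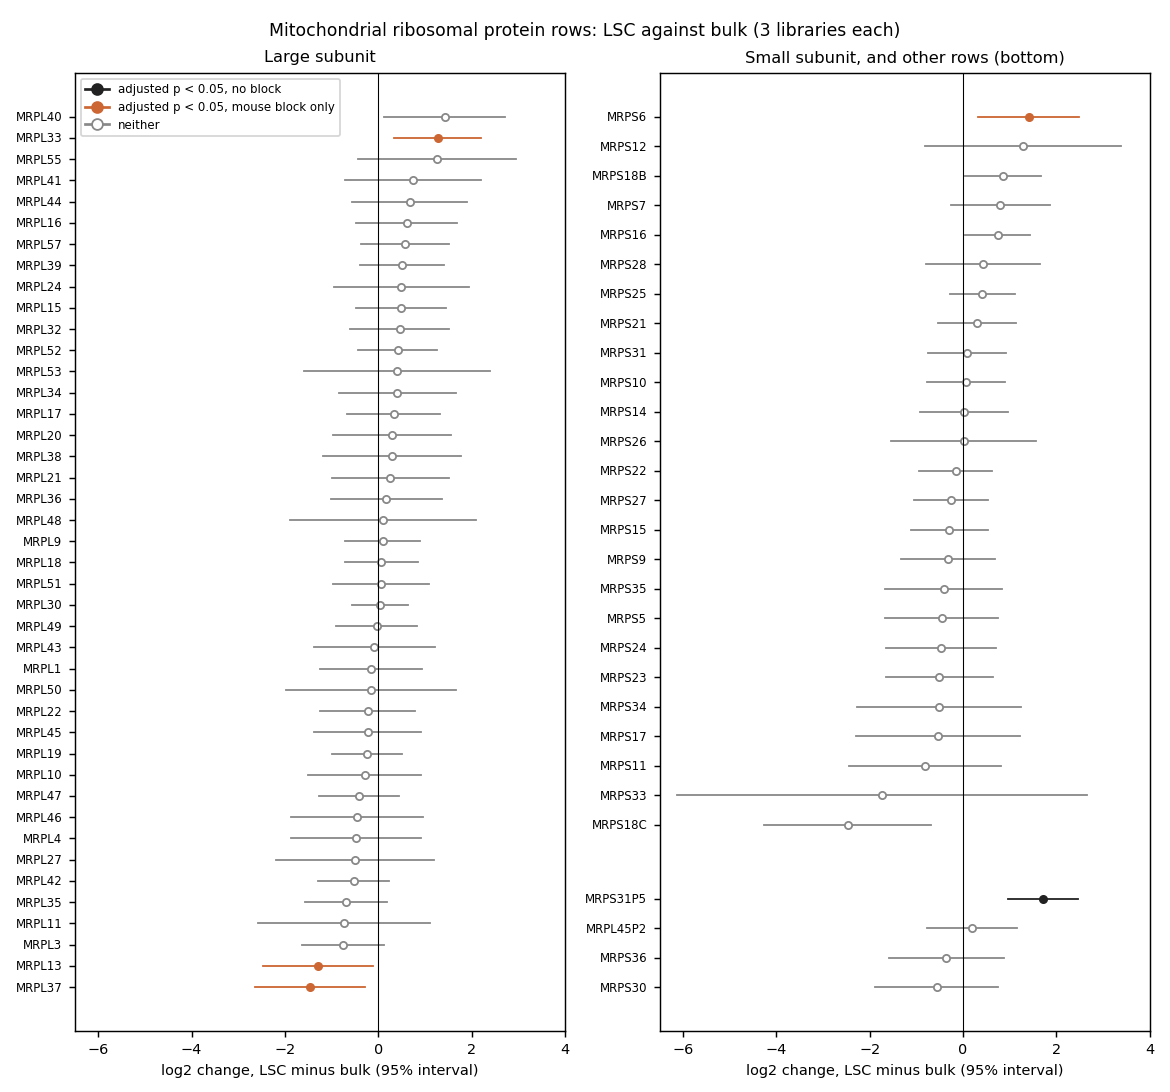
Log2 change between LSC and bulk (x axis) for each of the 71 rows tested, with its 95% interval from the fit without a block, ordered by size within the large subunit (left), the small subunit and the other rows (right). Points lie on both sides of 0 in both subunits, MRPS31P5 is the filled black point, and the 4 orange points passed with the mouse block alone.

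The summed level of the members was 897, 942 and 931 CPM in the bulk libraries of mice 1, 2 and 3. It was 1044, 1080 and 947 CPM in the LSC libraries, each above every bulk sum. As a share of reads outside MTRNR2L rows, the sums were 0.153%, 0.181% and 0.152% in bulk and 0.174%, 0.213% and 0.174% in LSC. By that share bulk replicate 2 exceeded LSC replicates 1 and 3, while each LSC library exceeded its own mouse's bulk library. Over the 70 genes of ribosomal proteins, both subunits together, the sum was 872, 916 and 902 CPM in the bulk libraries of mice 1, 2 and 3. It was 965, 1010 and 902 CPM in the LSC libraries, so that LSC replicate 3 lay within the bulk range. For the large subunit the bulk libraries summed to 542, 537 and 571 CPM and the LSC libraries to 537, 586 and 557 CPM, which overlapped. For the small subunit the sums were 321, 370 and 318 CPM in bulk and 415, 421 and 338 CPM in LSC. In CPM, LSC replicates 1 and 2 lay above the bulk range and LSC replicate 3 within it. As a share of reads outside MTRNR2L rows, only LSC replicate 2 lay above that range (0.0828%). By that share LSC replicate 1 (0.0691%) was below bulk replicate 2 (0.0713%). MRPS6 alone contributed 68.4, 60.2 and 18.6 CPM to the LSC sums. In sorted cell populations, fewer cells of a type and less RNA per cell cannot be told apart.

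The subunits were then compared through their changes, because levels of different genes are not comparable without gene length. In the large subunit 0 of 42 tested members passed the unblocked test. The block called 1 higher and 2 lower. At an unadjusted p under 0.05 the counts were 2 and 2. In the small subunit 0 of 25 passed, the block called 1 higher, and 3 higher and 1 lower had an unadjusted p under 0.05. The median log2 change was 0.08 in the large and -0.16 in the small subunit. The difference of these medians was 0.24, and it was not the same in the mice: -0.12 in mouse 1, 0.27 in mouse 2 and 0.12 in mouse 3 (SD 0.20). It shrank to 0.04 when genes under 5 CPM were left out, to 0.02 without bulk replicate 3, and turned to -0.13 without mouse 3. Grouped by name alone, MRPL rows had a median of 0.10 and MRPS rows of -0.21.

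Within single mice, the large subunit median was 0.14, 0.01 and 0.24 in mice 1, 2 and 3, and the small subunit median 0.26, -0.26 and 0.13. All genes tested had medians of 0.09, 0.01 and -0.03. In mouse 2 alone a subunit, the small one, had a negative median. Large subunit proteins with a bacterial counterpart had a median of 0.06 and those specific to mitochondria 0.10, and the small subunit values were 0.01 and -0.21. These medians were described without a test.

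**Figure D2:**
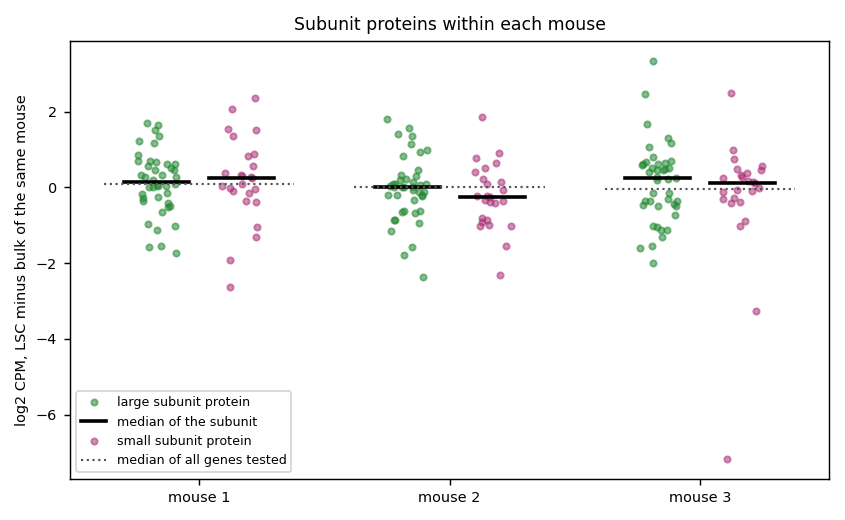
Difference in log2 CPM between the LSC and bulk library of each mouse (y axis) for every tested large subunit (green) and small subunit (purple) protein; black bars are the medians of a subunit and dotted lines those of all genes tested. The small subunit median is above the large one in mouse 1 and below it in mice 2 and 3, and the lowest point is MRPS33 in mouse 3, which had no read in LSC.

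MRPS31P5, the pseudogene of the small subunit gene MRPS31, was the row that rose. Its level was 14.9, 17.02 and 16.6 CPM in the bulk and 68.2, 60.5 and 36.0 CPM in the LSC libraries of mice 1, 2 and 3, so every LSC library exceeded every bulk library. The means were 16.2 ± 1.12 CPM in bulk and 54.9 ± 16.8 CPM in LSC (mean ± SD, n = 3), a log2 change of 1.71 (SE 0.34, limma adjusted p = 0.0265, and 0.00578 with the block). The adjusted p was 0.0647 to 0.0984 without bulk replicate 1 or 2 or LSC replicate 1 or 2, 0.263 without mouse 1 and 0.166 without mouse 2. It was 0.0741 without the variance trend. Across all settings the change stayed between 1.47 and 2.01. The parent gene MRPS31, which encodes a mitochondria-specific protein, had 21.1, 16.3 and 14.8 CPM in bulk and 25.7, 12.9 and 18.5 CPM in LSC, with overlapping groups and a change of 0.09 (SE 0.37, adjusted p = 0.912). Parent and pseudogene share sequence, so how reads were divided between them is uncertain. MRPL45P2, the other pseudogene, had a change of 0.19 (SE 0.43, adjusted p = 0.834).

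In the large subunit, MRPL33 was the member higher in LSC with the block. MRPL33, a small protein with a bacterial counterpart, had 4.62, 4.32 and 4.29 CPM in bulk and 15.2, 8.24 and 9.70 CPM in LSC. The bulk values were nearly equal and all LSC values were higher. Its log2 change was 1.27 (SE 0.42, adjusted p = 0.132), and the blocked fit put it just past the threshold (adjusted p = 0.0498), while voom with the block did not call it. MRPL40, specific to mitochondria, had 1.98 ± 0.789 CPM in bulk and 5.18 ± 1.63 CPM in LSC (mean ± SD, n = 3), a change of 1.42 (SE 0.57) in which the groups did not overlap. It did not pass either fit (adjusted p = 0.208, 0.0930 with the block), and its bulk libraries held 13, 13 and 41 reads. MRPL55 had a change of 1.26 (SE 0.75, adjusted p = 0.378) that came largely from mouse 3, with 0.34, 0.10 and 3.35 in mice 1, 2 and 3.

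The members lower in LSC with the block were MRPL37 and MRPL13. MRPL37, a protein found only in mitochondrial ribosomes, had 23.5, 15.0 and 11.4 CPM in bulk and 7.09, 9.32 and 2.84 CPM in LSC, with no overlap. Its log2 change was -1.47 (SE 0.52, adjusted p = 0.161, and 0.0309 with the block). MRPL13, the counterpart of bacterial L13, had 19.3, 19.6 and 49.4 CPM in bulk and 13.8, 5.64 and 16.4 CPM in LSC. Bulk replicate 3 was the highest value and LSC replicate 2 the lowest. All LSC values lay below all bulk values, so each LSC library was below its own mouse's bulk library. The change was -1.29 (SE 0.53, adjusted p = 0.213, and 0.0330 with the block).

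In the small subunit, MRPS6 was the member that passed with the block. MRPS6, the counterpart of bacterial S6, had 16.3, 16.4 and 15.5 CPM in bulk and 68.4, 60.2 and 18.6 CPM in LSC. The first and second mice showed a large difference (2.07 and 1.87 in log2) and the third a small one (0.26). The mean change was 1.40 (SE 0.48, adjusted p = 0.149, and 0.0340 with the block). It passed without a block when LSC replicate 3 was left out (2.00, adjusted p = 0.0275) and when mouse 3 was left out (1.97, adjusted p = 0.0330). The transporter gene SLC5A3 lies within the MRPS6 locus, so some reads could belong to either. Its own row read 45.7, 33.3 and 70.2 CPM in bulk and 76.9, 94.1 and 30.5 CPM in LSC (log2 change 0.35, SE 0.46, adjusted p = 0.710).

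**Figure D3:**
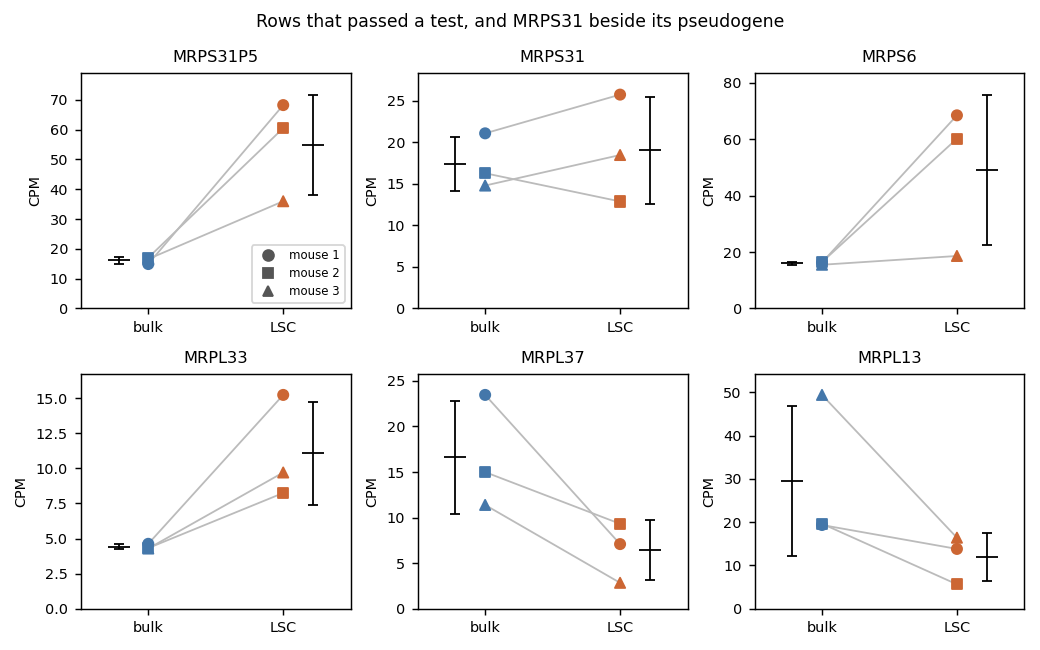
CPM (y axis, from 0) in bulk (blue) and LSC (orange) libraries for MRPS31P5, MRPS31, MRPS6, MRPL33, MRPL37 and MRPL13; lines join libraries of one mouse and black bars give the mean ± SD of 3 libraries. MRPS31P5 separates the populations in every mouse while MRPS31 overlaps, and MRPS6 in mouse 3 is 15.5 CPM in bulk and 18.6 CPM in LSC, far below the other LSC values.

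MRPS18B and MRPS18C, relatives of bacterial S18, had changes of opposite sign, and neither passed either fit. Humans have 3 such relatives. MRPS18C holds the bacterial position, and MRPS18B occupies another place in the small subunit. MRPS18A, which was not tested, lies in the large subunit. MRPS18C had 2.40, 1.69 and 3.65 CPM in bulk and 0.369, 0.571 and 0.365 CPM in LSC, without overlap. These were 14, 20 and 57 reads against 5, 9 and 5. The log2 change was -2.48 (SE 0.80, adjusted p = 0.127, and 0.0884 with the block), and among the alternatives run it passed only without the variance trend (adjusted p = 0.0361). MRPS18B had 7.53, 11.6 and 7.997 CPM in bulk and 14.0, 18.3 and 16.0 CPM in LSC, also without overlap, a change of 0.85 (SE 0.36, adjusted p = 0.230, and 0.0909 with the block). Whether the changes of the relatives differ was not tested. MRPS33, a mitochondria-specific small subunit protein, had the next most negative change (-1.74, SE 1.95, adjusted p = 0.655), which rests on 0 reads in LSC replicate 3 and was 1.03 without that library.

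Groups were also separate for MRPS16 and MRPS7. MRPS16, the counterpart of bacterial S16, had 26.5, 33.1 and 33.3 CPM in bulk and 39.3, 62.1 and 55.8 CPM in LSC, a log2 change of 0.74 (SE 0.31, adjusted p = 0.218, and 0.0605 with the block). It passed with voom weights and the block together (adjusted p = 0.0470). MRPS7, whose bacterial counterpart starts the assembly of the head of the small subunit, had 4.75 ± 0.242 CPM in bulk and 8.95 ± 4.67 CPM in LSC (mean ± SD, n = 3), a change of 0.79 (SE 0.47, adjusted p = 0.375). Its LSC mean was raised by mouse 1, with 14.3 CPM against 5.96 and 6.56 CPM in the others.

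Of the proteins named for their place in the ribosome, MRPL3, MRPL11, MRPS12 and MRPS30 did not pass either fit. MRPL3, whose bacterial counterpart reaches toward the peptidyl transferase centre, had 66.9, 35.7 and 50.2 CPM in bulk and 33.3, 18.5 and 40.3 CPM in LSC. It was lower in each mouse, with overlapping groups, and its change was -0.76 (SE 0.39, adjusted p = 0.311, and 0.0724 with the block). MRPL11, of the region that stimulates translation factor GTPases, had 7, 47 and 26 reads in bulk and 37, 12 and 11 in LSC, and a change of -0.74 (SE 0.82, adjusted p = 0.651). MRPS12, of the decoding centre, had 3, 20 and 4 reads in bulk and 21, 23 and 21 in LSC, and a change of 1.28 (SE 0.93, adjusted p = 0.474). Groups overlapped for MRPL11 and MRPS12. MRPS11, of the small subunit platform, had a change of -0.81 (SE 0.73, adjusted p = 0.562). MRPS30, in the large subunit despite its name, had -0.56 (SE 0.59, adjusted p = 0.626), and MRPS36, outside the ribosome, -0.37 (SE 0.55, adjusted p = 0.745).

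Members were also compared by how much of their spread lay between mice. Of each row's sum of squares in log2 CPM, the mouse took a median of 48.5% and the population 13.7% over the 71 rows, against 43.8% and 26.8% over all genes tested. With more mice than populations, the mouse share would tend to be the larger without any difference. The mouse share passed 80% in 10 of 71 rows (14.1%; 12.2% of all genes) and the population share in 3 (4.23%; 7.77% of all genes). MRPS14, of the small subunit head, was the clearest case. Its level was 21.2 and 20.6 CPM in the bulk and LSC libraries of mouse 1, 10.2 and 10.9 CPM in mouse 2, and 18.4 and 18.3 CPM in mouse 3, with a mouse share of 99.6%. MRPS10, also of the head, ran the other way, with 28.9 and 35.9 CPM in mouse 1, 64.3 and 61.9 CPM in mouse 2 and 48.7 and 45.9 CPM in mouse 3.

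Mouse 3 was low for another set. MRPL20, which in bacteria is needed early in assembly, had 13.01 and 21.3 CPM in mouse 1, 11.6 and 9.95 CPM in mouse 2 and 4.80 and 6.35 CPM in mouse 3. MRPL51 had 22.8 and 19.3, 23.3 and 21.4, and 8.76 and 12.6 CPM in the same order. MRPS5, of the small subunit body, had 20.7 and 16.1, 19.3 and 10.3, and 6.85 and 6.27 CPM. Mouse 2 was high for MRPL44, a large subunit protein with an RNase III fold, at 19.8 CPM in bulk and 50.7 CPM in LSC against 10.4 to 22.8 CPM in the other mice. MRPL57 had 24.0 and 34.4 CPM in mouse 1, 44.1 and 87.3 CPM in mouse 2 and 49.1 and 56.6 CPM in mouse 3, so that mouse 2 was highest in LSC and mouse 3 in bulk. These genes were picked once their values had been seen, and no test was run between mice.

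**Figure D4:**
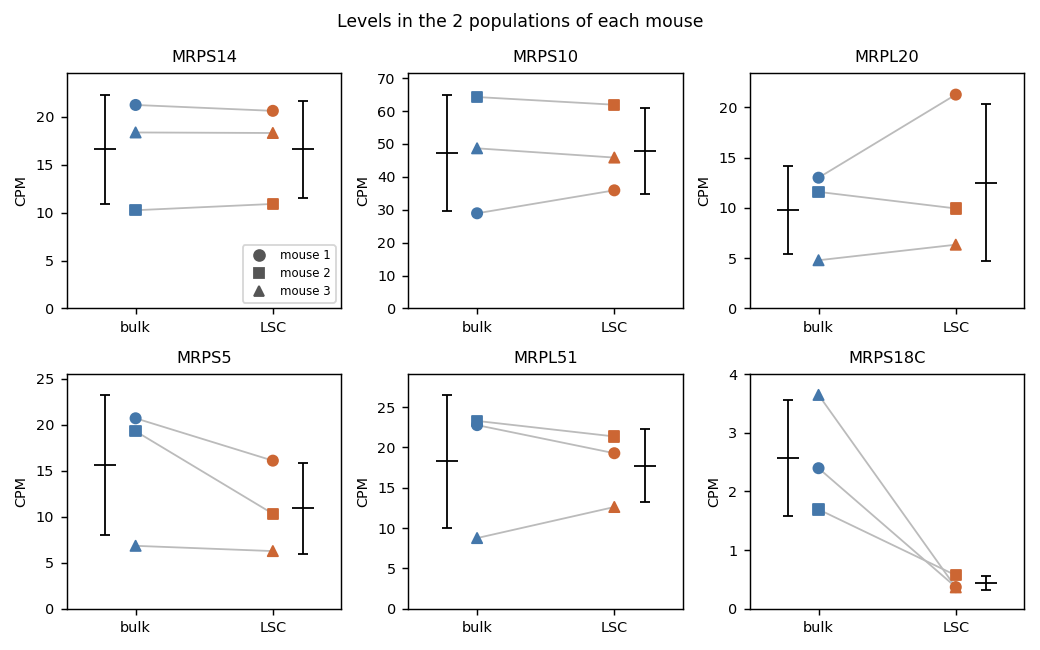
CPM (y axis, from 0) of MRPS14, MRPS10, MRPL20, MRPS5, MRPL51 and MRPS18C in bulk (blue) and LSC (orange) libraries; lines join libraries of one mouse and black bars give the mean ± SD of 3 libraries. Lines of MRPS14 are nearly flat and keep the mice apart, whereas MRPS18C is at least 1.69 CPM in bulk and at most 0.571 CPM in LSC.

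Genes that work with the mitochondrial ribosome were read against the same shares of all genes, 2.71% higher and 1.33% lower without the block and 8.25% and 7.71% with it. Of 5 ribosomal proteins with other names, DAP3, PTCD3, CHCHD1, AURKAIP1 and ICT1, none passed, with log2 changes of 0.37, -0.12, 0.41, -1.63 and -0.42. Among 20 assembly factors none passed without the block, and 2 were higher with it. These were MTG2, a GTPase of large subunit assembly (12.5, 19.6 and 12.9 CPM in bulk, 28.4, 42.0 and 35.4 CPM in LSC, change 1.25, SE 0.34, adjusted p = 0.0791, and 0.0147 with the block), and RPUSD4, a pseudouridine synthase (change 1.04, SE 0.37, adjusted p = 0.161, and 0.0445 with the block). The list's median was -0.02. ERAL1, a chaperone of the small subunit RNA, had a change of -1.35 (SE 0.79, adjusted p = 0.372).

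Of 16 translation factors 13 had negative changes (6909 of 13755 over all genes tested), the median was -0.22, and none passed without the block. Within mice 1, 2 and 3 the negative ones were 9, 9 and 11, and 4 were lower in all 3 mice. The block called 1 higher and 1 lower. LRPPRC, which stabilizes mitochondrial messenger RNAs, had 145, 110 and 103 CPM in bulk and 69.5, 56.7 and 67.5 CPM in LSC, without overlap (change -0.88, SE 0.27, adjusted p = 0.113, and 0.0241 with the block). Its partner SLIRP had a change of -1.39 (SE 0.94, adjusted p = 0.440). MTFMT, which formylates the initiator tRNA, had a change of 1.03 (SE 0.43, adjusted p = 0.223, and 0.0181 with the block). Of 19 mitochondrial aminoacyl-tRNA synthetase genes and their partners, none passed and the median was 0.01. With the block the threonine enzyme TARS2 was higher (1.62, SE 0.52, adjusted p = 0.125, and 0.0137 with the block). PET112, an amidotransferase subunit, had -2.93 (SE 0.88, adjusted p = 0.105). In the list of mitochondrial DNA transcription and replication 0 of 9 passed either fit, and POLRMT, POLG and C10orf2 had changes of 1.00, 0.57 and -0.93.

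The respiratory chain and the ATP synthase were looked at through their nuclear-encoded subunits. Of 71 nuclear-encoded respiratory chain and ATP synthase subunits 0 passed without the block, 4 were higher and 1 lower with it (all genes, 8.25% and 7.71%), and the median was 0.20. NDUFV2 and NDUFS1, both subunits of complex I, had changes of 1.01 (SE 0.30) and -1.08 (SE 0.33), with adjusted p of 0.0998 and 0.108 and of 0.0278 and 0.0308 with the block. Cytosolic ribosomal proteins, the counterparts in the cytoplasm, gave 0 of 79 without the block, 8 higher and 1 lower with it, where the higher count is near the 8.25% of all genes, and a median of 0.07. RPS20 and RPL37A differed by 0.97 and 0.84, with adjusted p of 0.106 and 0.134 and of 0.0190 and 0.0379 with the block. Cytosolic ribosomal protein genes have many processed copies, so part of their reads is uncertain in origin.

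**Figure D5:**
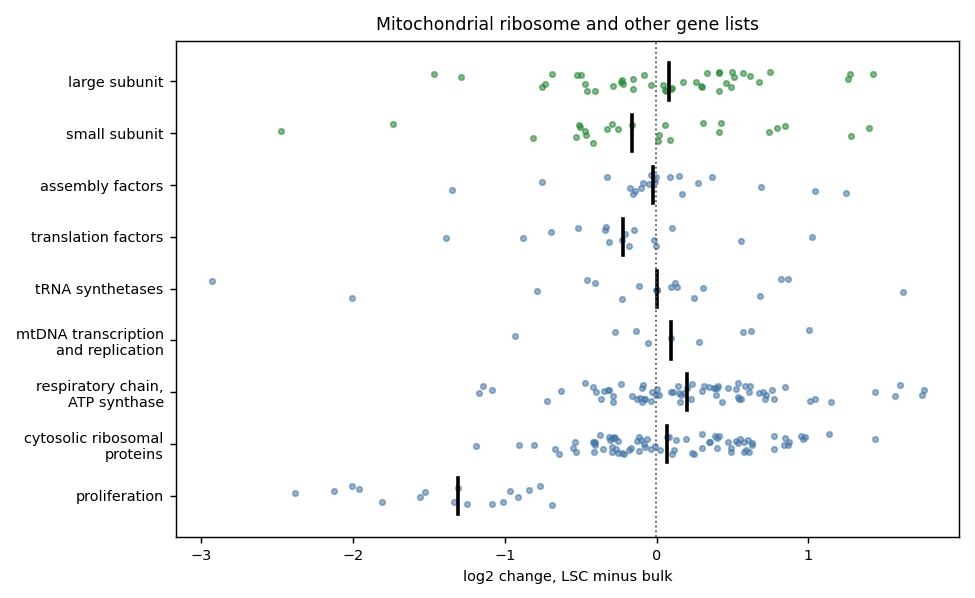
Log2 change between LSC and bulk (x axis) of each tested gene in 9 lists, with the median as a black bar; the dotted line is the median of all genes tested. The medians of both ribosomal subunits and of 6 other mitochondrial and ribosomal lists lie between -0.22 and 0.20, and that of 17 proliferation genes at -1.31.

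Other gene groups differed between the gates beside these values. All 17 proliferation genes had negative changes and 3 fell in the unblocked test, MKI67 (-2.13), TOP2A (-2.01) and MCM4 (-1.56), while the count was 10 with the block. Plasmacytoid dendritic cell markers were higher in LSC in 10 of 10 cases, with summed levels of 120 to 316 CPM in bulk and 1503 to 2846 CPM in LSC. One of them is IL3RA, which encodes CD123 and belongs to the gate. Erythroid markers had summed levels of 290 to 1128 CPM in bulk and 36.4 to 476 CPM in LSC (3 of 11 lower, and 9 with the block). B lineage markers had 132 to 1014 and 126 to 205 CPM (2 of 7 tested lower, and with the block 3 lower and 1, BLNK, higher). BLNK, a B cell adaptor gene named after its values were seen, had 18.5, 12.8 and 89.6 CPM in bulk and 103, 103 and 161 CPM in LSC. Granulocyte markers had 207 to 3616 and 86.1 to 1147 CPM (0 of 9, and 7 lower with the block). Monocyte markers had 3197 to 5139 and 904 to 2495 CPM (1 of 4 tested lower, and 3 with the block). T and NK cell markers had 79.1 to 109 and 107 to 139 CPM (0 of 6 in either fit). No marker was at 0 in all 3 libraries of a group. The part of cell makeup, of depth and of the MTRNR2L share in the values of MRPS31P5, MRPS6, MRPL33, MRPL37 and MRPL13 was not tested.

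In the authors' deposited table, which covers the same libraries, the lowest false discovery rate of the 73 rows was 0.244, for MRPS31P5. By those values, 2 of the rows were higher and 2 lower in LSC at an unadjusted p under 0.05, against 12.4% of all its rows.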

How the data were processed

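Sorted marrow cells of 3 mice gave RNA whose cDNA was amplified (NuGEN Ovation) and sequenced, per the labels. RSEM, Bowtie2, edgeR and the build hg19 are named, without roles or versions, per the submitters' processing notes. Symbols and build are human although the organism label is that of the host, and human sequences and coordinates were not used here. The authors' deposited values per library are log2 CPM with a small prior. The table also has the authors' log2 fold change, a likelihood ratio score, a p-value and a false discovery rate, per the file headers, which are used only where the authors' deposited table is named. Subtracting the floor common to all libraries and dividing by the step gave reads, whole within 0.1 for 100% of values. CPM printed per library are these reads on the deposited scale. Alternatives were other filters, pseudocounts and scalings, no variance trend, voom, the block and leaving out libraries or mice. Libraries held 10669560 to 14933494 reads.

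The 13755 genes that reached 1 CPM in 3 or more libraries were tested with limma 3.58.1 in R 4.3.3 (lmFit, eBayes with trend, two-sided, Benjamini-Hochberg over all of them, threshold 0.05) on the deposited log2 values, without a block, with 3 bulk and 3 LSC libraries. The code was tested on simulated reads. Replicate numbers are mouse numbers, per the labels. Deviations from group means correlated within mice 1, 2 and 3 at 0.33, 0.35 and 0.30, so blocked values are printed where they change a call. Members and lists were chosen with earlier results of these data known. All rows of the symbol rule could be named. Given in full are those past the threshold in either fit, the 5 largest changes in each direction and proteins of known place in the ribosome, together with up to 3 genes of each other list by moderated statistic. Some genes that the rule names are left out. Further names were added after their values were seen: MRPS14, MRPS10, MRPL57, MRPL44, MRPS16, MRPS18B, MRPS31, MRPL55, MRPL45P2, MRPL20, MRPL48, MRPL51, MRPS5, SLC5A3 and the 5 ribosomal proteins with other names.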

Additional observations from a re-analysis of the deposited data

How the results depend on the processing

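The alternatives were other filters, pseudocounts, scalings, no variance trend, voom, the mouse block and leaving out each library or mouse. Voom with the block was chosen after seeing the data. Scaling moved the median of all genes by at most 0.06. The main test called 373 genes higher and 183 lower. The counts were 1135 and 1060 with the replicate block, 1216 and 1217 with voom and the block, 197 and 54 without the trend, and a pseudocount of 1 CPM gave 302 lower. Leaving out a library or mouse gave 37 to 346 higher and 0 to 169 lower, with the lowest counts without mouse 1. For mitochondrial ribosomal protein rows the replicate block gave 3 higher and 2 lower, voom with the block 3 and 2 (MRPS16 in place of MRPL33 among the higher), no trend 0 and 1, and leaving out a library or mouse 0 to 2 higher and 0 lower. The 2 higher rows without LSC replicate 3 or mouse 3 were MRPS31P5 and MRPS6. The block changed no other call of a tested member than those of MRPL37, MRPL13, MRPL33 and MRPS6.

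Subunit medians ranged, when a library or mouse was left out, from -0.11 to 0.17 (large), from -0.18 to 0.024 (small) and from -0.13 to 0.35 (large minus small). The last was 0.039 with a filter of 5 CPM. The causes were not tested. Signs turned for genes near 0 or with few reads, and also for MRPL20 (main change 0.30, 75 to 288 reads per library) and SLC5A3. With upper-quartile scaling MRPS14 was -0.035. With quantile normalization MRPS14 was -0.077, MRPL51 -0.041 and MRPS31 -0.011. With voom and the block MRPS33 was 0.31. Leaving out a library or mouse gave ranges across 0 of -3.79 to 1.03 for MRPS33, -1.70 to 0.071 for MRPL11, -0.80 to 0.020 for MRPS36, -0.18 to 0.70 for MRPL20, -0.038 to 0.39 for MRPL45P2, -1.09 to 0.93 for MRPL48, -0.41 to 0.29 for MRPL51, -0.26 to 0.32 for MRPS10, -0.30 to 0.29 for MRPS14, -0.16 to 0.34 for MRPS31 and -0.23 to 1.13 for SLC5A3.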

Other observations

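In MRPL48 and MRPS33, 1 library stood far from the others. MRPL48 was picked after its values were seen, and MRPS33 is among the 5 lowest changes. MRPL48, a mitochondria-specific large subunit protein, had 4.79, 5.08 and 4.61 CPM in bulk replicates 1, 2 and 3 and 1.63, 3.30 and 25.6 CPM in LSC replicates 1, 2 and 3. LSC replicate 3 held 351 of its reads. Its change of 0.10 (log2, SE 0.88, adjusted p = 0.960 by limma) became -1.05 without that library. MRPS33, a mitochondria-specific small subunit protein, had 1.88, 5.25 and 2.81 CPM in bulk and 9.83 and 3.93 CPM in LSC replicates 1 and 2. LSC replicate 3 had 0 reads, which allows up to 0.219 CPM by counting alone. Its fitted change of -1.74 (SE 1.95, adjusted p = 0.655) rests on the prior that stands in for 0 reads, and was 1.03 without that library. In both cases the library was LSC replicate 3, which had 262 rows without a read against 51 to 143 in the other 5. Whether this bears on both genes was not tested.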
